A study of Saccharomyces cerevisiae with 104 samples.

Results

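The 10 genes described here carry sulfate of the budding yeast Saccharomyces cerevisiae from the medium to sulfide. They were chosen by name for their steps in the pathway, with earlier results of these data known. All 10 were found among the 7108 entries of each gene table. Besides 100 ChIP-exo samples, which map contacts between proteins and DNA and were not analysed here, the series holds 4 RNA-seq libraries of total RNA. They are called libraries 1 to 4, and the numbers are names without meaning. The labels attach growth at 25 °C and 0.3 mM H2O2 for 6 min to every sample, name no strain, and mark no RNA-seq library as treated, untreated or a repeat of another. The study's title and design text concern the stalling of RNA polymerase II under acute peroxide stress. Since no library has a condition, libraries are described one by one, without comparison of groups, tests or replicate error.

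Sulfate is chemically inert until it is activated with ATP. Permeases bring it in, an adenylyltransferase and a kinase turn it into an activated nucleotide, and a pair of reductases lower it to sulfite and then to sulfide. Sulfide is joined to a carbon skeleton to give homocysteine, the entry to methionine, cysteine, S-adenosylmethionine and glutathione. In yeast the pathway is known to be transcribed under the activator Met4, which acts with Cbf1, Met31, Met32 and Met28 and is restrained by the ubiquitin ligase subunit Met30. Reduction of a sulfate consumes NADPH, the same coenzyme that recharges the thioredoxins and glutathione used against peroxide.

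The libraries differed widely in how much messenger RNA they held. Nuclear protein-coding genes, 5989 in number, took 46.9, 12.2, 21.2 and 5.77% of TPM in libraries 1, 2, 3 and 4. TPM is abundance per unit of gene length, scaled to the same total in every library with ribosomal RNA included. The median nuclear protein-coding gene stood at 40.2, 7.50, 17.6 and 3.59 TPM in libraries 1, 2, 3 and 4, with a mean read depth (coverage) of 12.8, 3.70, 8.17 and 2.26. Of aligned bases, which TPM divides by gene length, these genes took 76.7, 33.2, 58.2 and 21.9%. For this reason each gene is given mainly as a level ratio, its TPM divided by that of the median nuclear protein-coding gene of the same library. Both sides of that ratio are per length, so it also compares levels between genes. A level in a culture is a share of its RNA, so fewer cells with a messenger and less messenger per cell cannot be told apart.

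Relative to the median gene, the pathway stood high in libraries 1 and 3 and near or below it in libraries 2 and 4. The median level ratio of the 10 genes was 2.99, 0.753, 2.497 and 0.758 in libraries 1, 2, 3 and 4. For all nuclear protein-coding genes the quartiles of the level ratio ran from 0.460 to 1.91 in library 1, 0.512 to 1.97 in library 2, 0.475 to 1.91 in library 3 and 0.487 to 1.96 in library 4. A level ratio of at least 2 was reached by 7 of 10 genes in library 1, where 23.5% of all nuclear protein-coding genes reached it. In library 2 it was reached by 0 of 10, against 24.6% of all genes. Library 3 had 7 of 10, against 23.3%, and library 4 had 0 of 10, against 24.6%. The 7 genes past that level in library 1 were the same as in library 3, namely MET3, MET14, MET16, MET22, MET5, MET10 and MET1. Together the 10 genes held 0.253, 0.0545, 0.222 and 0.0510% of the TPM of nuclear protein-coding genes in libraries 1, 2, 3 and 4. The libraries in which the pathway stood high also had the larger messenger shares and the deeper coverage given above, and the part of these in the difference was not tested.

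**Figure D1:**
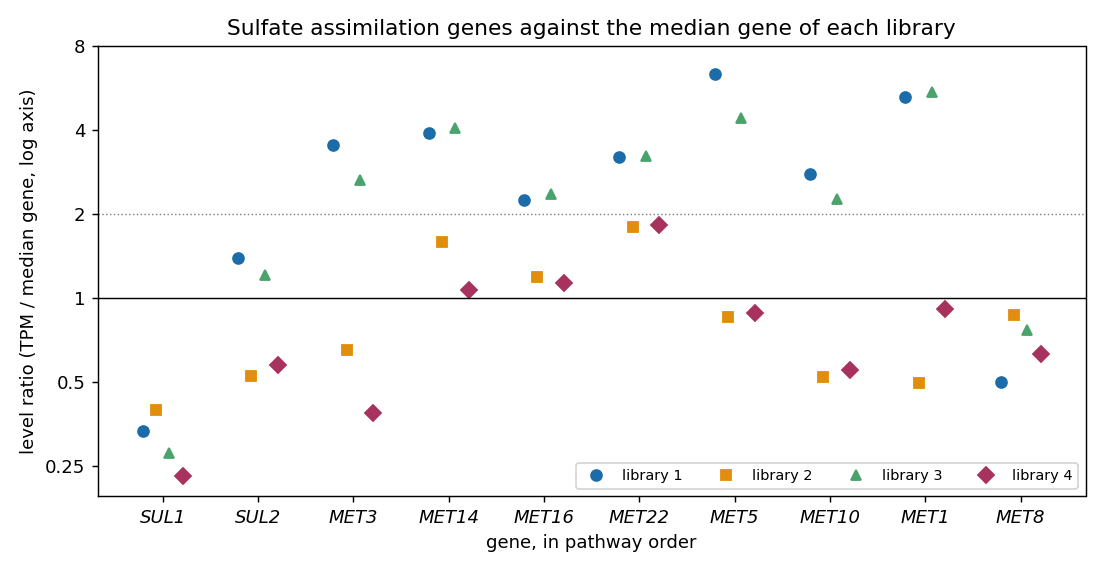
Level ratio (TPM divided by that of the median nuclear protein-coding gene of the same library, log axis) of the 10 genes in pathway order, 1 point per library. The solid line marks the median gene and the dotted line a level ratio of 2. In libraries 1 and 3, 7 genes lie above the dotted line, and in libraries 2 and 4 none does.

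All of the genes except SUL1 and MET8 had higher level ratios in libraries 1 and 3 than in libraries 2 and 4. Of the 10 genes, 4 had their highest level ratio in library 1 (SUL2, MET3, MET5 and MET10) and 4 in library 3 (MET14, MET16, MET22 and MET1). Among 5667 nuclear protein-coding genes whose median TPM was 1 or more, 29.5% were highest in library 1 and 15.8% in library 3. Which of these libraries came first turned on small differences for some members, such as MET22 at 3.20 and 3.23 in libraries 1 and 3. With each gene taken against genes of its own length, MET14, MET16 and MET22 were highest in library 1 and SUL2 in library 3. The lowest level ratio fell in library 2 for 5 of 10 genes, against 25.8% of all genes, and in library 4 for 4 of 10, against 26.1%. These counts also turned on small differences for some members, such as MET22 at 1.79 and 1.82 and MET5 at 0.856 and 0.886 in libraries 2 and 4. SUL1 and MET8 were highest in library 2, and MET8 was lowest in library 1. Both lay below the median gene in each of the 4 libraries.

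Sulfate enters through a pair of related permeases encoded by SUL1 and SUL2, and the SUL2 messenger was the more abundant in every library. SUL1 (YBR294W, chromosome 2, 789235 to 791814, plus strand) stood at 13.4, 2.97, 4.88 and 0.825 TPM in libraries 1, 2, 3 and 4. Its level ratios were 0.332, 0.396, 0.277 and 0.230, which put it between the 12.2 and 18.6 percentile of nuclear protein-coding genes. SUL1 was thus low in each library and had the lowest TPM of the 10 genes in all 4. SUL2 (YLR092W, chromosome 12, 323544 to 326225, plus strand) stood at 55.7, 3.95, 21.3 and 2.06 TPM, and at level ratios of 1.39, 0.527, 1.21 and 0.573. It lay above the median gene in libraries 1 and 3 and below it in libraries 2 and 4. The ratio of SUL1 to SUL2 was 0.240, 0.751, 0.230 and 0.401 in libraries 1, 2, 3 and 4, a 3.27-fold range. The permease genes are related in sequence, so reads that match both could have been assigned to either, and their split is uncertain to that extent.

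Activation takes place in a pair of steps. MET3 encodes ATP sulfurylase, which couples sulfate to ATP, and MET14 encodes the kinase that phosphorylates the product. MET3 (YJR010W, chromosome 10, 456239 to 457774, plus strand) had level ratios of 3.52, 0.649, 2.64 and 0.388 in libraries 1, 2, 3 and 4. It went from the 89.5 percentile of genes in library 1 to the 20.1 percentile in library 4, and its level ratio spanned 9.08-fold. Its 1.39 TPM in library 4 rested on a coverage of 0.876, less than a single read over each base. MET14 (YKL001C, chromosome 11, 438777 to 439385, minus strand), the shortest of the genes at 609 bases, stood at 157, 11.9, 71.8 and 3.83 TPM. Its level ratios of 3.91, 1.59, 4.08 and 1.07 were above the median gene in each library. MET14 exceeded MET3 in every library, by a TPM ratio of 1.11, 2.44, 1.55 and 2.75. The kinase and the sulfurylase messengers were therefore closest in library 1 and farthest apart in library 4, where MET3 was thinly covered. With each gene taken against genes of its own length, the order held but the contrast shrank, at 1.55, 2.03, 1.68 and 2.19.

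MET16 encodes the reductase that releases sulfite, drawing electrons from thioredoxin. MET16 (YPR167C, chromosome 16, 876847 to 877632, minus strand) stood at 90.1, 8.90, 41.5 and 4.05 TPM, and at level ratios of 2.24, 1.19, 2.36 and 1.13 in libraries 1, 2, 3 and 4. It was above the median gene throughout, with a 2.09-fold range of level ratio. The ratio of MET16 to MET14 was 0.573 in library 1 and 0.577 in library 3, and 0.748 and 1.06 in libraries 2 and 4.

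The reductase also leaves an adenosine bisphosphate, and MET22 encodes the phosphatase that removes it. This phosphatase is known to be inhibited by lithium and sodium ions, and its substrate to inhibit exoribonucleases. MET22 (YOL064C, chromosome 15, 206103 to 207176, minus strand) stood at 129, 13.5, 56.9 and 6.55 TPM in libraries 1, 2, 3 and 4. Its level ratios were 3.20, 1.79, 3.23 and 1.82, so it stood above the median gene in each library with only a 1.80-fold range. It had the highest TPM of the 10 genes in libraries 2 and 4, and ranked number 5 in library 1 and number 4 in library 3.

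Sulfite reductase is built from the siroheme-carrying beta subunit of MET5 and the flavoprotein alpha subunit of MET10. MET5 (YJR137C, chromosome 10, 678957 to 683285, minus strand), the longest of the genes at 4329 bases, had level ratios of 6.36, 0.856, 4.42 and 0.886 in libraries 1, 2, 3 and 4. It was at the 96.2 percentile of genes in library 1 and the 43.4 percentile in library 2. MET10 (YFR030W, chromosome 6, 213312 to 216419, plus strand) stood at 112, 3.90, 39.9 and 1.99 TPM and at level ratios of 2.78, 0.519, 2.27 and 0.553. MET10 stood at 0.437, 0.607, 0.513 and 0.624 of the MET5 level in libraries 1, 2, 3 and 4. That 1.43-fold range was the smallest of the 5 pairs compared on the TPM scale. With each gene taken against genes of its own length, it was 1.58-fold, and that of MET14 over MET3 was smaller at 1.41-fold. The level ratio of MET5 itself ranged 7.43-fold and that of MET10 5.35-fold.

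The siroheme of sulfite reductase is made from uroporphyrinogen III by a methyltransferase, MET1, and a dehydrogenase that also inserts the iron, MET8. Their ratio varied more than that of the other pairs compared. MET1 (YKR069W, chromosome 11, 571612 to 573393, plus strand) stood at 211, 3.71, 95.96 and 3.27 TPM in libraries 1, 2, 3 and 4. Its level ratios were 5.26, 0.494, 5.45 and 0.911, an 11.03-fold range and the widest of the 10 genes. It sat at the 94.3 percentile of genes in libraries 1 and 3 and at the 24.1 and 45.9 percentile in libraries 2 and 4. MET8 (YBR213W, chromosome 2, 650368 to 651192, plus strand) stood at 20.003, 6.51, 13.6 and 2.27 TPM. Its level ratios were 0.497, 0.868, 0.770 and 0.631, below the median gene in each library and lowest in library 1. The ratio of MET8 to MET1 was 0.0946, 1.76, 0.141 and 0.692, an 18.55-fold range, and library 2 was the only one in which MET8 exceeded MET1.

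**Figure D2:**
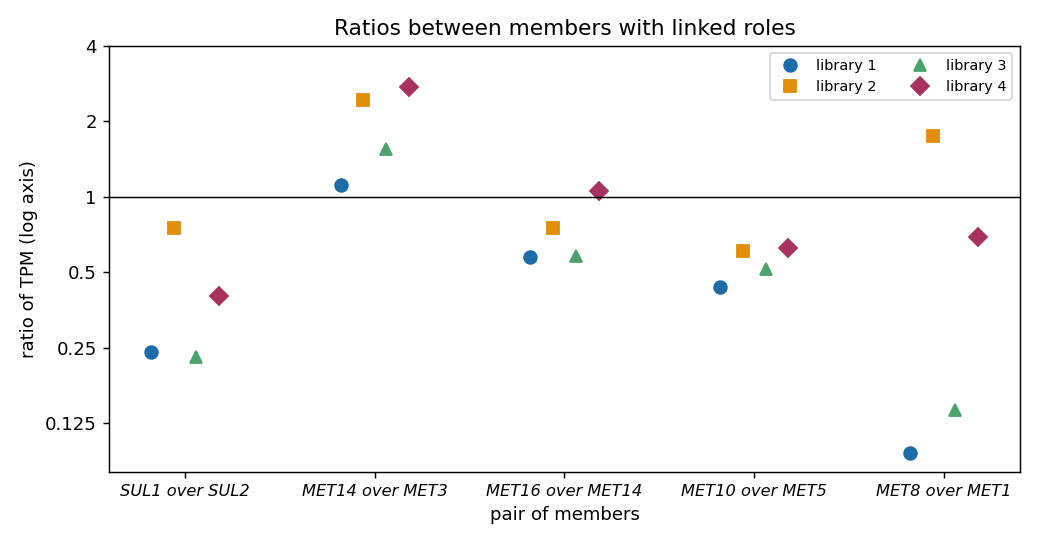
Ratio of TPM (log axis) between members with linked roles, 1 point per library, with the line at equal levels. MET10 over MET5 stays between 0.437 and 0.624, while MET8 over MET1 runs from 0.0946 to 1.76.

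Ranked by TPM within each library, the 10 genes kept much of their order in some pairs of libraries and little in others. MET5 led in library 1, MET1 in library 3, and MET22 in libraries 2 and 4. MET1 ranked number 2 in library 1 and number 9 in library 2. Over the 10 genes, Spearman's rho was 0.964 between libraries 1 and 3 and 0.758 between libraries 2 and 4. It was 0.200 between libraries 1 and 2, 0.394 between 1 and 4, 0.273 between 2 and 3, and 0.576 between 3 and 4. Libraries 1 and 3 and libraries 2 and 4 were also the most alike over all 5989 nuclear protein-coding genes, at 0.966 and 0.928. The rest of those values lay between 0.812 and 0.858. These are descriptions over genes that share their libraries and depth. The spread among the members also differed, with the highest level over the lowest at 19.1-fold in library 1, 4.54-fold in library 2, 19.7-fold in library 3 and 7.94-fold in library 4.

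The reads behind the members set how far these values can be read. Coverage of the 10 genes ran from 4.24 (SUL1) to 81.3 (MET5) in library 1 and from 1.47 (SUL1) to 6.65 (MET22) in library 2. In library 3 it ran from 2.26 (SUL1) to 44.5 (MET1), and in library 4 from 0.518 (SUL1) to 4.11 (MET22). Coverage times length gave 1174 aligned bases for MET8, 1337 for SUL1, 1345 for MET3 and 1465 for MET14 in library 4. MET5 had the most of the 10 genes in library 4, at 8652. The tables hold no read counts, so the exact number of reads behind a value is unknown and no sampling interval is given. Among totals under 400 aligned bases per gene, the commonest whole number was 76, followed by 36 and 40, so the read length is not settled. In units of 76 bases, library 4 held 15.4 for MET8, 17.6 for SUL1, 17.7 for MET3 and 19.3 for MET14. Differences among low members of library 4 are the least certain values here.

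**Figure D3:**
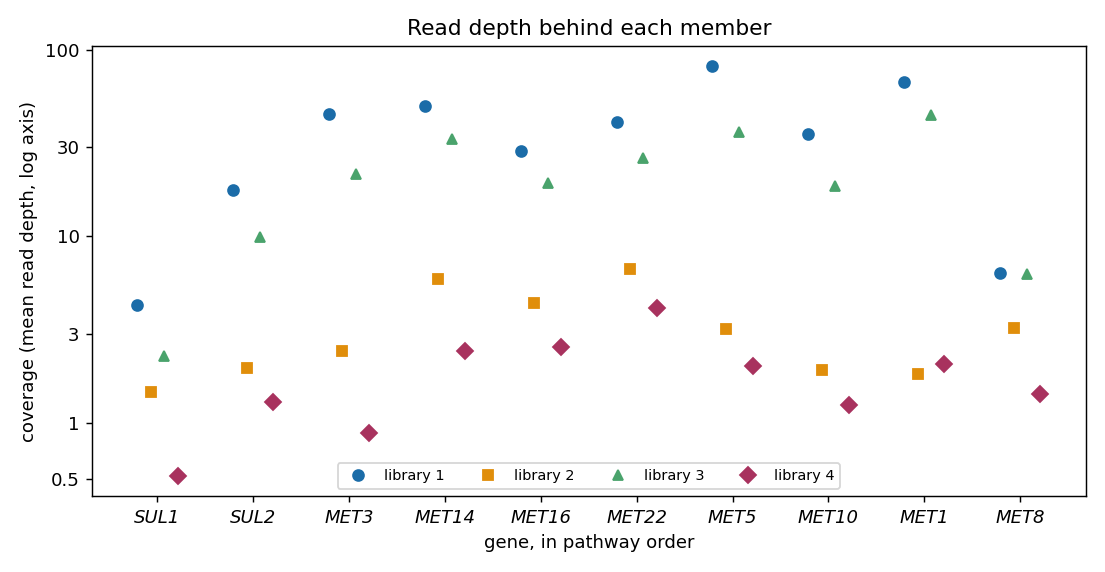
Coverage (mean read depth over the gene, log axis) of the 10 genes in pathway order, 1 point per library. SUL1 and MET3 lie below a depth of 1 in library 4, and MET5 reaches 81.3 in library 1.

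How far each gene differed over the libraries was also measured as a span. This is the highest less the lowest value of log2(TPM + 1) after the median gene of each library was set to 0, and it understates differences of low genes. The added 1 can also widen a span, as for MET22, which spanned 0.85 with 0.1 added instead and 0.94 with 1. MET1 spanned 3.23 log2 units, MET5 2.84, MET3 2.73, MET10 2.25 and MET14 1.90. SUL2 spanned 1.24, MET16 1.05, MET22 0.94, MET8 0.79 and SUL1 0.56. A span of at least 1 was reached by 7 of 10 genes, where 37.4% of the 5667 nuclear protein-coding genes kept reached it. The median span was 1.57 for the 10 genes and 0.81 for all 5667, with an upper quartile of 1.25 and an upper 5% from 2.29. MET1, MET5 and MET3 lay above that last value, at the 98.8, 97.9 and 97.5 percentile. SUL1 and MET8 lay at the 28.8 and 48.6 percentile, so the pathway held genes with both wide and ordinary spans. The span of MET16 was 0.97 without library 4, that of SUL1 0.33 without library 2 and that of MET8 0.31 without library 1.

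Gene length moved with library, which matters for a pathway whose genes run from 609 to 4329 bases. The longest of 5 equal bins of genes (2144 bases and more) had a median level ratio of 1.31, 0.932, 1.05 and 0.889 in libraries 1, 2, 3 and 4. The shortest bin (78 to 651 bases), which holds MET14, ran the other way, at 0.703, 1.21, 0.919 and 1.28. Against the median of genes within 25% of its own length, MET5 still stood at 5.15, 0.885, 4.83 and 0.999, and MET1 at 4.59, 0.521, 5.17 and 0.938. MET14, the shortest, stood at 4.84, 1.31, 4.12 and 0.853, so in library 4 it lay below genes of its own length but above the median gene. The same held for MET16, at 2.36, 1.003, 2.18 and 0.940. SUL2 was the gene whose span fell below 1 in this comparison, at 0.79 against 1.24. The span of MET14 rose from 1.90 to 2.42.

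**Figure D4:**
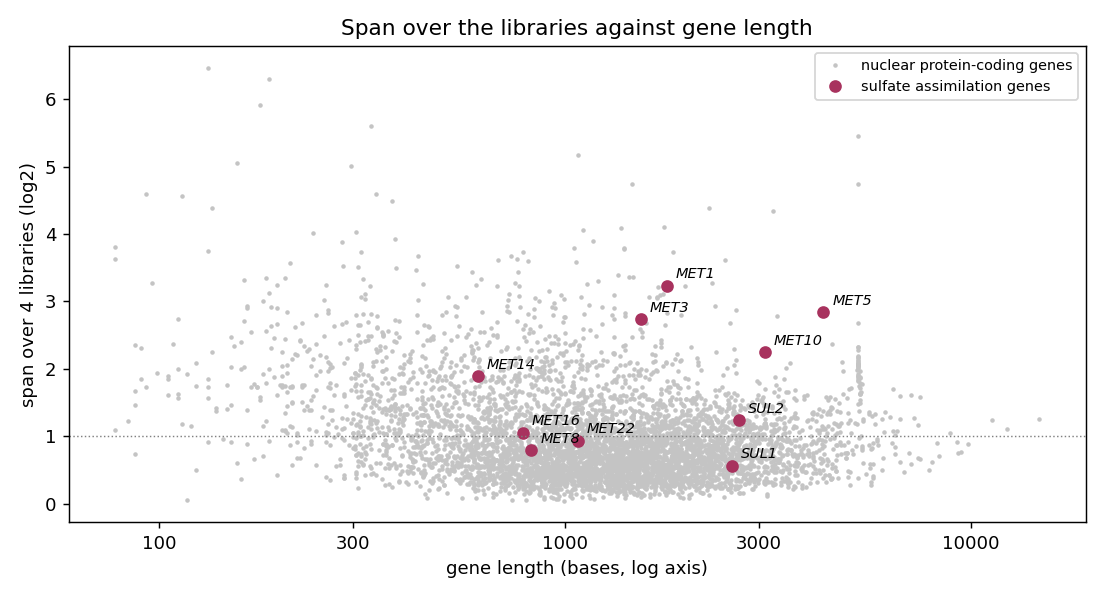
Span over the 4 libraries (log2) against gene length (bases, log axis) for 5667 nuclear protein-coding genes (grey) and the 10 sulfate assimilation genes (red). The dotted line marks a span of 1. MET1, MET3, MET5, MET10 and MET14 lie between 1.90 and 3.23, while SUL1, MET8 and MET22 lie below 1.

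Genes next to the pathway were described in the same way from lists written by role, also with earlier results of these data known. Over all nuclear protein-coding genes, 23.5, 24.6, 23.3 and 24.6% had a level ratio of at least 2 in libraries 1, 2, 3 and 4. Of 9 genes for methionine and S-adenosylmethionine synthesis, 7, 3, 7 and 2 had such a level ratio. The 9 include MET17, listed at 0 in every library. MET6, methionine synthase, had the widest span of that list at 3.27, and MET7, which lengthens the folate used in the same step, had the narrowest at 0.88. For transsulfuration and homoserine the counts were 6, 5, 6 and 5 of 7. The cystathionine lyase STR3 spanned 3.79, with level ratios of 7.32, 0.477, 7.83 and 0.509, whereas HOM2, of homoserine synthesis, spanned 0.43 with level ratios of 6.24, 8.95, 6.22 and 8.29.

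The regulators had 3, 0, 3 and 0 of 6 genes at a level ratio of at least 2 in libraries 1, 2, 3 and 4. For this list and those below, the shares over all nuclear protein-coding genes were 23.5, 24.6, 23.3 and 24.6%. MET4, the activator of the pathway, had the narrowest span of the list at 0.30, with level ratios of 1.64, 1.47, 1.34 and 1.73. Its cofactor MET28 had the widest at 2.21, with level ratios of 2.39, 0.758, 2.68 and 0.440. Among 3 genes for sulfite export and NADPH supply, ZWF1, which opens the pentose phosphate pathway, was the gene past a level ratio of 2, with 15.3, 9.11, 13.9 and 8.66. It was named after its values were seen. The sulfite pump SSU1 spanned 0.87 and its activator FZF1 spanned 1.17. Among 5 permeases for other sulfur compounds, 5, 3, 5 and 3 reached a level ratio of 2. The S-methylmethionine permease MMP1 spanned 4.11 and the cysteine transporter YCT1 spanned 0.94. The median span was 1.21 for methionine synthesis, 1.18 for transsulfuration, 1.25 for the regulators, 1.10 for sulfite and NADPH and 2.38 for the other permeases.

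**Figure D5:**
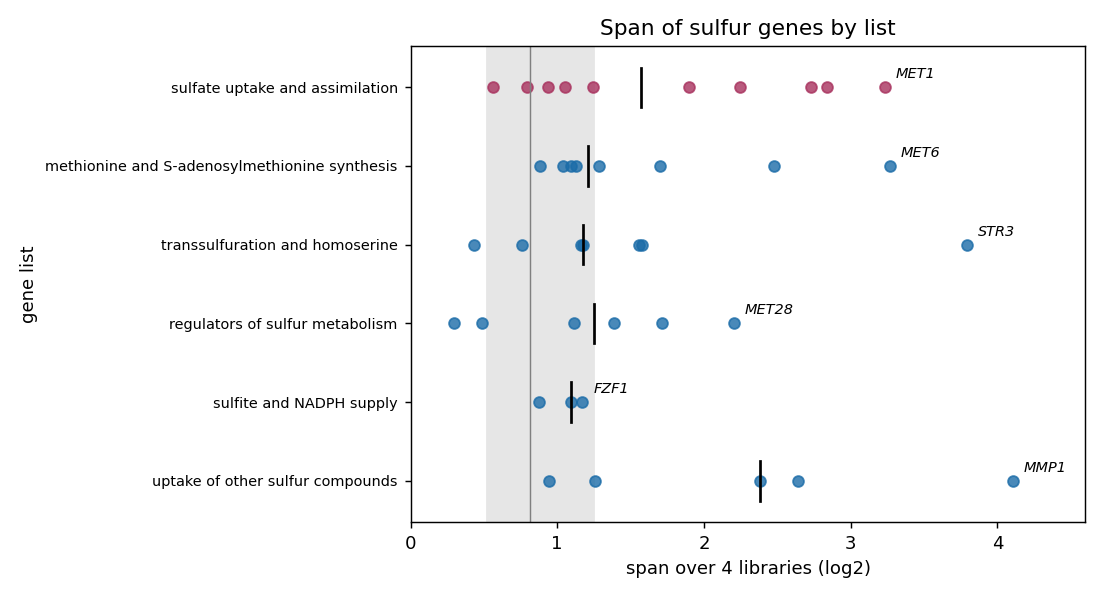
Span over the 4 libraries (log2) of each gene whose median TPM was 1 or more, by list, with black bars at list medians. The grey band covers the middle quartiles of all 5667 genes, 0.52 to 1.25, and the grey line their median of 0.81. The sulfate assimilation genes have a median of 1.57, and STR3 and MMP1 lie farthest right.

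The enzyme that takes up the sulfide formed by these genes was listed at 0. MET17 (chromosome 12, 732542 to 733876), which joins sulfide to O-acetylhomoserine to give homocysteine, had a TPM of 0 in all 4 libraries. It was singled out after its values were seen, as were the other genes of this paragraph. LEU2 and URA3, of leucine and uracil synthesis, were also listed at 0 in all 4 libraries. HIS3 stood at 24.3, 6.91, 10.2 and 5.20 TPM, LYS2 at 109, 11.6, 37.7 and 4.79 TPM and TRP1 at 23.7, 9.14, 16.1 and 3.67 TPM in libraries 1, 2, 3 and 4. In all, 34 of the 5989 nuclear protein-coding genes were listed at 0 in each library. HAC1, the transcription factor of the unfolded protein response, was among them, and why an entry was listed at 0 was not tested. Whether MET17 is absent from the genome of these cells cannot be read from the tables.

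The 10 genes outside the pathway nearest to the members' median pattern over the 4 libraries are named here. None was on the lists of neighbouring roles, but with 10 of 3601 candidates named this says little about those lists. Each gene's centred log2(TPM + 1) was taken less its own mean, and 3601 genes outside the pathway whose median TPM reached 10 were ranked by Euclidean distance. The members' median pattern was 0.71, -0.58, 0.67 and -0.73 in libraries 1, 2, 3 and 4. PWP2, of the small-subunit processome, was nearest at a distance of 0.0671, followed by RTT10, the replicative helicase gene MCM6, FOB1 and DUG3, of glutathione breakdown. NOT3, YIL108W, DIP2, the Hsp70 gene SSA3 and the nuclear pore gene NUP85 followed, out to a distance of 0.145. The median candidate lay 1.31 away. The members themselves lay between 0.363 (MET16) and 1.74 (MET8) from their own median, and MET8, SUL1 and MET1 lay farther from it than the median candidate. MET16, MET14, SUL2 and MET22 were the members closest to it, at 0.363 to 0.447.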

How the data were processed

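The 4 RNA-seq tables list coverage, FPKM and TPM for 7108 entries each. The authors deposited coverage as a signal under that heading, and it is read here as the mean read depth of a gene. The deposited FPKM equals coverage times a factor fixed for each table. The deposited TPM is per length and sums to 1000000, ribosomal RNA included. The submitters' processing notes name BWA, Picard, SAMtools and the build sacCer3 for the whole series. The RNA-seq abundance estimator and the strandedness are not given in the sources used here. No member overlapped another entry, and the nearest lay 174 to 804 bases away.

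RefSeq's R64 gene table matched 6011 identifiers and gave the protein-coding class. All 10 members matched it by symbol and start. Level ratios used TPM without a pseudocount, and spans used a pseudocount of 1. The background of spans was the genes whose median TPM was 1 or more, and all 10 members were among them.

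Samples were left unassigned, so comparisons, p-values and paired analysis were not made. Promoter and protein sequences were not analysed here. The members and lists were chosen with earlier results of these data known. Named beyond the members were the genes of widest and narrowest span in each list and the 10 nearest patterns, apart from those stated as chosen after their values were seen. The planned motif search was not run. Alternatives were other pseudocounts, units, centrings, filters and left-out libraries or members. The code was tested on simulated data. The tools were Python 3.11.15, pandas 2.3.3, numpy 2.4.6, matplotlib 3.10.9 and scipy 1.17.1.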

Additional observations from a re-analysis of the deposited data

How the results depend on the processing

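All 200 level ratios recomputed with FPKM, coverage, rescaled TPM or another reference level moved by less than 1 SD of that gene over the libraries. That SD holds the differences between libraries, so it is a lenient measure for genes that differed widely. Against genes of like length, MET5 in library 1 went from 6.36 to 5.15 and MET14 from 3.91 to 4.84. FPKM, coverage and rescaled TPM are constant multiples within a library, so they cannot change a level ratio. The median level ratio, with each member left out in turn, lay between 2.78 and 3.20, 0.649 and 0.856, 2.36 and 2.64, and 0.631 and 0.886 in libraries 1, 2, 3 and 4. With a threshold of 1, the level of the median gene itself, 8, 3, 8 and 3 genes passed in libraries 1, 2, 3 and 4, against 7, 0, 7 and 0 at a threshold of 2. The count of genes with a span of at least 1 was 6 or 7 in all 10 alternatives. It was 6 with a pseudocount of 5, where 32.1% of all genes passed, and 6 against genes of like length, a setting chosen after seeing the data, where 1700 of 5667 passed. With a library left out it lay between 6 and 7, and 26.3 to 33.95% of all genes passed. Besides the spans already given without a library, a pseudocount of 5 put SUL2 at 0.91, MET16 at 0.998 and MET22 at 1.14, and against genes of like length SUL1 spanned 0.89. The centred value of SUL1 in library 4 ran from -2.00 to -0.56 with pseudocounts of 0.1 and 5. No paired analysis was possible because the labels give no groups. Depth limits library 4 the most.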
